A study of Homo sapiens with 6 samples.

Results

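The genes described here are 28 genes of proximal tubule identity and transport, taken by symbol from the count and FPKM tables of 6 RNA-seq libraries of HK-2 cells. The count table holds 28565 genes in all. HK-2 is an established line of human proximal tubule epithelium, made immortal with papillomavirus oncogenes. All 6 libraries came from HK-2 cells transiently transfected, by a lipid reagent, with the overexpression plasmid of a long noncoding RNA that the sample titles call LncR2. In 3 of the libraries the cells had been exposed for 24 h to cisplatin, a platinum drug that crosslinks DNA, and in the other 3 for 0 h. Cells with the negative control plasmid were not analysed here, so the comparison holds the plasmid constant, and cisplatin exposure cannot be told apart from time in culture after transfection. The 28 genes were grouped by their known roles into 4 transcription factors, 1 adhesion protein, 3 endocytic receptor genes, 13 transporters and channels, and 7 enzymes.

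The proximal tubule reclaims most of the filtered glucose, phosphate, amino acids, bicarbonate and protein, and secretes organic drugs. It does so with apical and basolateral carriers, with the megalin and cubilin receptors of the brush border, and with peptidases that trim filtered peptides. The lineage is set up in the embryo by PAX2, PAX8 and LHX1, and the mature programme depends on HNF4A, as shown in mice. Cultured tubule cells are known to lose much of the mature transport programme. Cisplatin enters and injures this segment of the nephron in patients, and the series concerns that injury.

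Within this set, HK-2 cells expressed 3 transcription factors of the kidney lineage, several surface peptidases and 2 basolateral carriers. HNF4A and the set's apical carriers and receptors with a row held at most 8 reads in any library. This does not extend to all carriers of the tubule, since 19 of 36 further transporters were detected (below). Of the 28 genes, 22 had a row and 10 met the detection rule of 10 or more reads in all 6 libraries: PAX8, LHX1, PAX2, CDH6, SLC4A4, SLC7A7, DPP4, GGT1, MME and GATM. The other 12 with a row did not, and LRP2, SLC5A1, SLC22A6, SLC22A8, SLC47A1 and PCK1 had no row and were not analysed here. By role, 3 of 4 transcription factors, 1 of 1 adhesion genes, 0 of 3 receptor genes, 2 of 13 transporters and 4 of 7 enzymes were detected. Of the 22 with a row 45.5% met the rule, against 70.8% of the 16208 protein-coding genes of the table. The threshold fell in a gap, since the lowest count of a detected gene was 19 (PAX2) and the highest count of an undetected gene was 8 (SLC3A1).

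After 24 h of cisplatin 0 of the 10 detected genes were called higher or lower in edgeR's quasi-likelihood model, with p-values adjusted by Benjamini-Hochberg over all genes and a threshold of 0.05. All 10 passed its filter on low counts, and each had reads in every library of both groups. Across the 13389 genes tested, 0.866% were called higher and 2.08% lower, 2.94% in all, so 0 of 10 lies close to that background. An unadjusted p under 0.05 was found for 4 of the 10 (LHX1, CDH6 and SLC4A4 with higher means at 24 h and PAX2 with a lower mean), against 18.1% of all tested genes. DESeq2 called 0 of the 10, against 0.904% of its tested genes called higher and 1.55% lower. The test limma on log2(FPKM + 1) called 2, LHX1 and CDH6, as higher and 0 as lower, against 4.84% of its tested genes called higher and 0.579% lower.

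Total counts per library ran from 6022268 to 7248754 at 24 h and from 5028881 to 5844246 at 0 h, so the 24 h libraries were deeper. The 0 h replicate 3 lay far from the other 0 h libraries in a principal component analysis. On component 1 it scored 1.28, where 0 h replicates 1 and 2 scored -23.77 and -24.51. The 24 h libraries scored 6.29, 17.76 and 22.95 there, so it lay toward them. On component 2 it scored -30.39, where 0 h replicates 1 and 2 scored 8.5 and -1.48. The 24 h replicates 1 to 3 scored 15.94, 12.7 and -5.27 on component 2. The totals by which the authors scaled the FPKM differ from the totals of the gene counts, and scaling by them shifted the median log2 fold change over all genes to 0.24. A pair of FPKM values of the groups carries this common shift, so directions of change are taken from the fold changes on the counts. CPM, reads scaled to a common library total after TMM normalization, serve to compare libraries, and FPKM, which also divides by transcript length, serves to compare genes. Each fold change is the log2 ratio of 24 h to 0 h, with the standard error of the edgeR model (n = 3 libraries per group), and in bulk RNA fewer cells and less RNA per cell cannot be told apart.

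**Figure D1:**
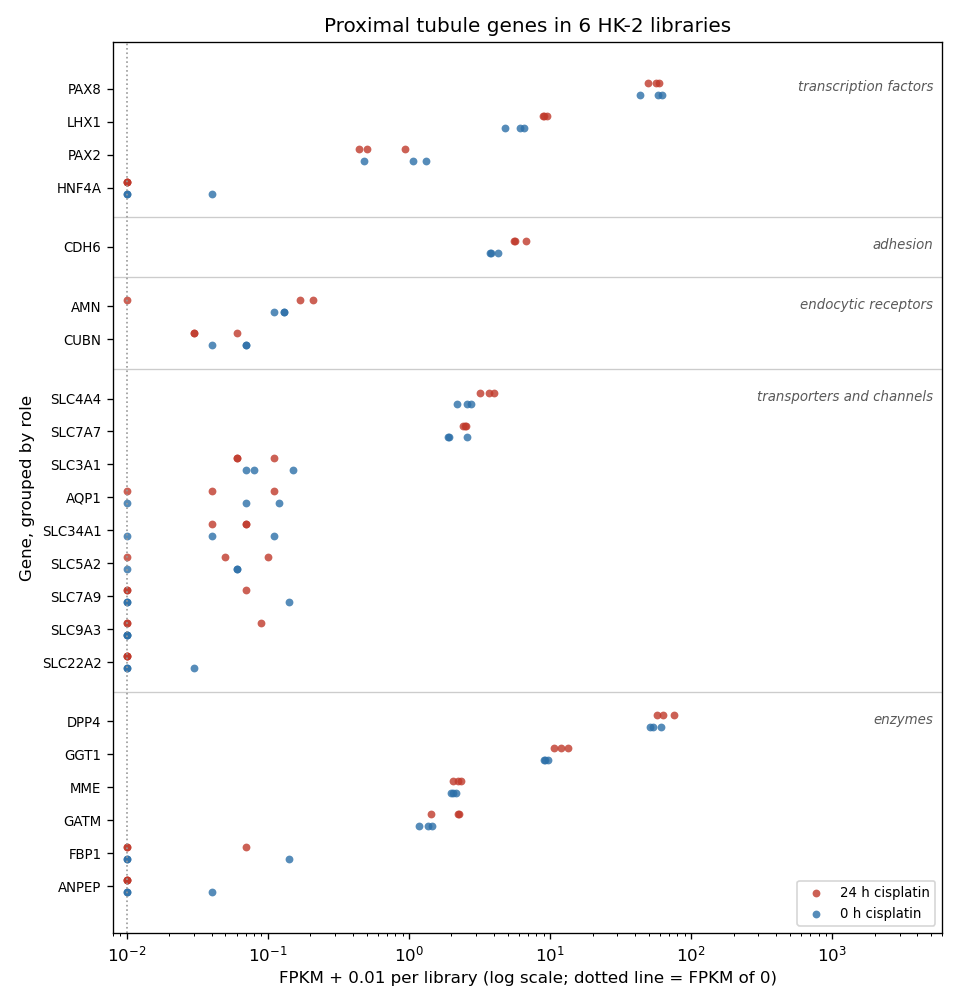
FPKM of the 22 genes with a row, plotted as FPKM + 0.01 on a log axis, 1 point per library, with the 24 h libraries (red) above the 0 h libraries (blue) and genes grouped by role. DPP4 and PAX8 lie above 40 FPKM in every library, the other detected genes between 0.43 and 13.44, and the 12 undetected genes at or under 0.20.

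Among the transcription factors, PAX8 was abundant and HNF4A was close to absent. PAX8, a paired-box factor of the nephric lineage, had 59.02, 56.23 and 49.68 FPKM in 24 h replicates 1 to 3, against 58.69, 62.11 and 43.11 FPKM in 0 h replicates 1 to 3. Its mean over all 6 libraries, 54.8 FPKM, was above that of 96.5% of the protein-coding genes of the table. The groups overlapped, with 0 h replicate 3 the lowest of all 6 libraries in FPKM and 24 h replicate 3 the lowest in CPM. The log2 fold change of PAX8 was -0.22 ± 0.14 (95% interval -0.51 to 0.07, edgeR adjusted p = 0.431). Without 0 h replicate 3 PAX8 was called lower (-0.36 ± 0.11, adjusted p = 0.0219), as were 6.72% of the genes tested in that fit. With libraries scaled by the FPKM totals its fold change was 0.0093, which is -0.23 relative to the shift of all genes. PAX8 (ENSG00000125618.16) lies on the minus strand of chromosome 2 from 113215997 to 113278950 (GENCODE 29, GRCh38). Its antisense partner PAX8-AS1 held 2.70% as many reads as PAX8, and the use of strand in counting is not given in the sources used here.

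LHX1, a LIM homeobox factor that patterns the early nephron in mice, had 323, 311 and 326 reads in the 24 h libraries, against 187, 201 and 165 reads in the 0 h libraries. On the CPM scale the values were 53.3, 45.0 and 44.7 at 24 h and 37.3, 39.4 and 29.1 at 0 h. Every 24 h library lay above every 0 h library, and 0 h replicate 3 was the lowest. LHX1 averaged 47.7 ± 4.86 CPM over the 24 h libraries and 35.3 ± 5.42 CPM over the 0 h libraries (SD, n = 3 each), and the log2 ratio was 0.44 ± 0.13 (95% interval 0.15 to 0.72). It did not pass the edgeR test (adjusted p = 0.0938). Over the 20 alternatives its adjusted p ran from 0.00284 to 0.256, and 5 of them called it higher. Each of the 5 also called more of all genes higher than the main fit did. They were FPKM totals (17.4% of tested genes called higher), limma on log2(FPKM + 1) (4.84%) and on log2(FPKM + 0.1) (625 of 14151 genes), no filter (345 of 28565) and the replicate block (739 of 13389). LHX1 (ENSG00000273706.4) lies on the plus strand of chromosome 17 from 36936785 to 36944612.

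PAX2, the paralog of PAX8, was the scarcest of the detected genes, with 38, 21 and 19 reads in the 24 h libraries, against 49, 40 and 20 reads in the 0 h libraries. The groups overlapped, because 0 h replicate 3 lay among the 24 h libraries. PAX2 averaged 3.97 ± 2.0 CPM across the 24 h libraries, against 7.05 ± 3.19 CPM across the 0 h libraries (SD, n = 3 each), and the SD was 50.4% of the mean at 24 h and 45.3% at 0 h, the widest spread of the 10 genes. Between the groups the log2 fold change was -0.84 ± 0.37 (95% interval -1.62 to -0.06, edgeR adjusted p = 0.238). Without 0 h replicate 3 it was called lower (-1.17 ± 0.28, adjusted p = 0.00248), a fit in which 6.72% of tested genes were called lower and 4.18% higher. Without 24 h replicate 1 the fold change was -1.30, and without 0 h replicate 1 it was -0.53, neither of them called. PAX2 (ENSG00000075891.21) lies on the plus strand of chromosome 10 from 100735603 to 100829941.

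HNF4A, the nuclear receptor of the mature proximal tubule, had 0, 0 and 0 reads in the 24 h libraries, against 2, 0 and 0 reads in the 0 h libraries. A count of 0 allows up to 0.414 to 0.498 CPM in a 24 h library and up to 0.513 to 0.597 CPM in a 0 h library, counting error only, so HNF4A was not detectable at this depth.

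Ratios of reads between these factors within a library do not depend on how libraries are scaled. LHX1 had 13.1, 12.9 and 14.8 reads per 100 PAX8 reads in the 24 h libraries, against 8.42, 8.52 and 8.96 in the 0 h libraries. The groups did not overlap, and 0 h replicate 3 lay with the other 0 h libraries. The means were 13.6 ± 1.07 at 24 h and 8.63 ± 0.287 at 0 h (SD, n = 3 each), a 1.57-fold difference, with a two-sided exact permutation p of 0.1, the smallest that 3 libraries against 3 can give, and 0.15 after Benjamini-Hochberg adjustment over the 3 ratios computed. LHX1 per 100 PAX2 reads did not overlap either, with 850, 1480 and 1720 at 24 h and 382, 502 and 825 at 0 h (exact permutation p = 0.1, adjusted 0.15). PAX2 per 100 PAX8 reads overlapped, with 1.54, 0.870 and 0.864 at 24 h and 2.21, 1.70 and 1.09 at 0 h (exact permutation p = 0.2, adjusted 0.2). These ratios were chosen after the values of the genes were seen.

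**Figure D2:**
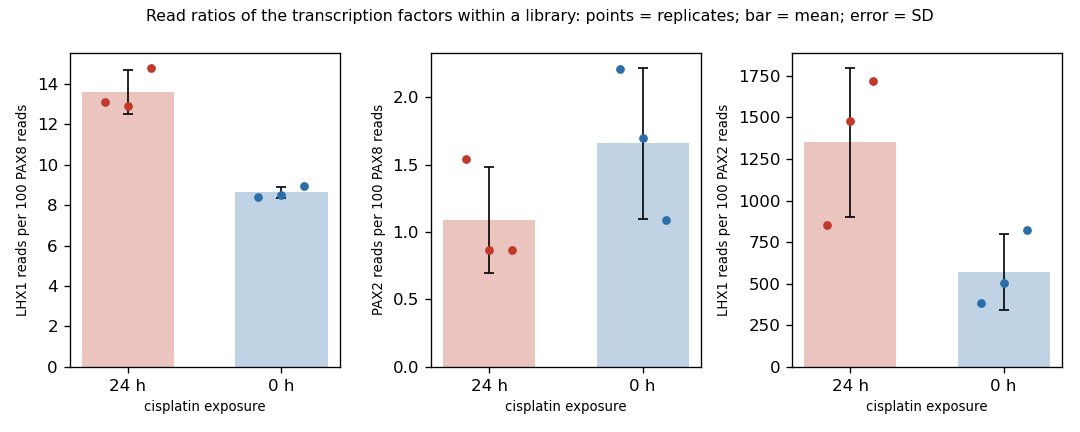
Reads of one transcription factor per 100 reads of another in each library, at 24 h (red) and 0 h (blue); points are libraries, bars are means and error bars are SD (n = 3). LHX1 per 100 PAX8 reads lies between 12.9 and 14.8 at 24 h and between 8.42 and 8.96 at 0 h, with no overlap.

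The sequences before the annotated starts were read for 22 of the 28 genes (35 starts) from RefSeq promoters on GRCh38.p14, and CDH6, LHX1, PCK1, SLC22A8, SLC3A1 and SLC47A1 have no entry there. The 250 bases before each start were searched on both strands for letters read by HNF4 factors. The full form CAAAGTCCA was in 0 of the 22 genes (0.325% of all 35116 starts). The shorter CAAAGTCC was in SLC34A1, which was undetected, and in SLC5A1, which had no row (1.02% of all starts), and CAAAGGTCA was in CUBN, which was undetected (0.339% of all starts). Both genes with a row are shown beside PAX8, the most abundant factor, with the CAAAGTCC or CAAAGGTCA letters of either strand in capitals.

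SLC34A1 (chr5:177384184-177384433, plus strand): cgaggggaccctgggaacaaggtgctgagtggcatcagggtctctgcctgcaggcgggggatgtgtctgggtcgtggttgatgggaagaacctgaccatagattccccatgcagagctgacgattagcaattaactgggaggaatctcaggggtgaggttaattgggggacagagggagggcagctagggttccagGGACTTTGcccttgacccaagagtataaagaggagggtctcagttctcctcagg
CUBN (chr10:17129812-17130061, minus strand): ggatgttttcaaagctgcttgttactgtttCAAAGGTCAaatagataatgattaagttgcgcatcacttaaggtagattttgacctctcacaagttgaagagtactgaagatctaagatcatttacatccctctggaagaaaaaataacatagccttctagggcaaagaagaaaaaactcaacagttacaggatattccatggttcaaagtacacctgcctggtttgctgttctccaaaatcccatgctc
PAX8 (chr2:113278922-113279171, minus strand): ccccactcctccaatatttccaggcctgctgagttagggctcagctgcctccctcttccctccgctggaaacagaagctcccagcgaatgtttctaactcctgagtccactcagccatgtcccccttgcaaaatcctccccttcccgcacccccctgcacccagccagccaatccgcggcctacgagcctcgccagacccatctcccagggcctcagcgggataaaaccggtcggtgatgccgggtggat

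SLC34A1 and CUBN each hold 1 match, and PAX8 holds 0. In total 12 motifs are given, chosen with the members known. The shifted form AAAGTCCA was in 0 genes (0.98% of all starts). The core CAAAGT was in 3 of 8 detected and 3 of 11 undetected genes with a row (10.3% of all starts), and CAAAG, which lies within CAAAGT, in 4 and 8 (42.1%). The nuclear receptor letters TGACCT were in 1 detected and 5 undetected genes (12.1%), and the PAX core GCGTGAC in 0 (2.2%). Of the general promoter letters, the AT-rich TTATNA was in 2 detected and 3 undetected genes (22.2%) and the CCAAT box in 4 and 3 (32.0%). The GC box GGGCGG was in 5 detected and 8 undetected genes with a row (42.6% of all starts), and the TATA box TATAAA in 0 detected and 2 undetected genes (10.7%). A gene was counted if any of its starts matched, and the 22 genes have 35 starts, unevenly shared. The percentages are shares of single starts, so here and above they are not a like measure for the counts of genes. Whether detected and undetected genes differ was not tested. These matches describe letters in a window and not binding.

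CDH6, cadherin-6, an adhesion protein of the developing nephron and proximal tubule, had 490, 512 and 624 reads in the 24 h libraries, against 338, 303 and 337 reads in the 0 h libraries. In CPM these were 80.8, 74.1 and 85.6 at 24 h and 67.4, 59.4 and 59.5 at 0 h. Every 24 h library lay above every 0 h library, as for LHX1. CDH6 averaged 80.2 ± 5.77 CPM over the 24 h libraries and 62.1 ± 4.59 CPM over the 0 h libraries (SD, n = 3 each), and the log2 ratio was 0.37 ± 0.11 (95% interval 0.14 to 0.60), which did not pass the edgeR test (adjusted p = 0.0780). Over the 20 alternatives its adjusted p ran from 0.00284 to 0.306, and 7 of them called it higher, among them the 5 that called LHX1. A correction for gene length called it (0.49 ± 0.11, adjusted p = 0.0221), where 0.889% of tested genes were called higher and 1.74% lower. The fit without 0 h replicate 3 also called it (0.34 ± 0.12, adjusted p = 0.0442), where 4.18% were called higher and 6.72% lower. Over the 10 detected genes, 2 (LHX1 and CDH6) were higher in every 24 h library and 1 (MME) lower in CPM, where 10.9% of all tested genes separate upward and 11.7% downward. In FPKM 4 of the 10 were higher in every 24 h library (SLC4A4, GGT1, LHX1 and CDH6) and 0 lower, where 33.3% of all tested genes separate upward and 3.01% downward, so the members' count lies close to that background. CDH6 (ENSG00000113361.12) lies on the plus strand of chromosome 5 from 31193750 to 31329146.

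The endocytic receptors, by which filtered albumin and vitamin carriers are taken back, were not detected at either time. CUBN, cubilin, had 2, 3 and 6 reads in the 24 h libraries, against 6, 6 and 4 reads in the 0 h libraries. AMN, which anchors cubilin to the membrane, had 0, 3 and 4 reads at 24 h and 2, 2 and 2 at 0 h. Their FPKM did not exceed 0.20 in any library. LRP2, megalin, was not analysed here. Of 9 further genes of endocytosis and the brush-border scaffold, 7 were detected, 0 rose and 0 fell by the edgeR test, and 1 had an unadjusted p under 0.05. That gene was CLCN5, the endosomal chloride transporter (-0.41 ± 0.12, adjusted p = 0.0712). EZR, ezrin, which ties microvilli to actin, was the most abundant at 150 ± 15.7 FPKM at 24 h and 124 ± 7.52 FPKM at 0 h. Its log2 fold change on the counts was 0.04 ± 0.10. LRPAP1, the chaperone of megalin (0.13 ± 0.10, adjusted p = 0.555), and the brush-border scaffolds PDZK1 (0.21 ± 0.17, adjusted p = 0.566) and SLC9A3R1 (-0.11 ± 0.12, adjusted p = 0.682) did not pass the edgeR test.

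Of the 13 transporters and channels, only SLC4A4 and SLC7A7, both basolateral carriers, were detected. SLC4A4, which moves bicarbonate with sodium into the blood, had 305, 271 and 351 reads in the 24 h libraries, against 163, 206 and 216 reads in the 0 h libraries. Scaled to CPM, they were 50.3, 39.2 and 48.1 at 24 h and 32.5, 40.4 and 38.1 at 0 h. In CPM 24 h replicate 2 lay below 0 h replicate 2, so the groups overlapped, whereas in FPKM they did not (3.70, 3.20 and 4.02 at 24 h and 2.18, 2.75 and 2.56 at 0 h). The log2 fold change was 0.31 ± 0.13 (95% interval 0.03 to 0.59, edgeR adjusted p = 0.224). With the FPKM totals as library size it was called higher (0.54 ± 0.145, adjusted p = 0.0110, 17.4% of all genes being called higher), which is 0.31 above the shift of all genes under that scaling. SLC4A4 (ENSG00000080493.13) lies on the plus strand of chromosome 4 from 71062667 to 71572087.

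SLC7A7, the light chain of a basolateral exchanger of cationic and neutral amino acids, had 64, 69 and 70 reads in the 24 h libraries, against 62, 46 and 51 reads in the 0 h libraries. In CPM these were 10.6, 9.99 and 9.60 at 24 h and 12.4, 9.02 and 9.0 at 0 h. The 24 h values all fell within the range of the 0 h values, which 0 h replicate 1 widened. The log2 fold change was -0.01 ± 0.19 (95% interval -0.41 to 0.39, edgeR adjusted p = 0.986), an interval that leaves room for changes of that size in either direction. SLC7A7 (ENSG00000155465.18) lies on the minus strand of chromosome 14 from 22773222 to 22829820.

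The other 7 transporters with a row had at most 8 reads in any library and at most 0.14 FPKM. SLC3A1, the heavy chain of the apical cystine carrier, had the most, with 3, 3 and 7 reads at 24 h and 4, 8 and 4 at 0 h, and its light chain SLC7A9 had 0, 1 and 0 at 24 h and 0, 2 and 0 at 0 h. SLC34A1, the apical phosphate carrier, had 2, 1 and 2 reads at 24 h and 0, 3 and 1 at 0 h. SLC5A2, the apical glucose carrier blocked by gliflozin drugs, had 2, 0 and 1 reads at 24 h and 1, 1 and 0 at 0 h. These apical carriers reclaim solutes from the filtrate, and neither SLC34A1 nor SLC5A2 exceeded 3 reads in any library. AQP1, the constitutive water channel, had 3, 0 and 1 reads at 24 h and 0, 3 and 2 at 0 h. SLC9A3, the apical sodium-proton exchanger, had 0, 2 and 0 reads at 24 h and 0, 0 and 0 at 0 h. SLC22A2, the basolateral organic cation carrier through which cisplatin is known to enter tubule cells, had 0, 0 and 0 reads at 24 h and 1, 0 and 0 at 0 h. It was therefore not detectable at this depth, and the secretory carriers SLC22A6, SLC22A8 and SLC47A1 were not analysed here.

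Among 36 further transporters of the proximal tubule, 33 had a row and 19 were detected, and 0 of the 20 tested rose or fell by the edgeR test. An unadjusted p under 0.05 was found for 4 of the 20, against 18.1% of all tested genes, with 3 higher and 1 lower at 24 h. The smallest p-values were those of SLC22A4, a carrier of ergothioneine (0.68 ± 0.19, adjusted p = 0.0660), SLC22A18 (0.63 ± 0.18, adjusted p = 0.0729) and SLC20A1, a sodium-phosphate carrier found in many cell types (0.30 ± 0.10, adjusted p = 0.116). The most abundant were ATP1B1, the beta subunit of the sodium pump, at 81.8 ± 10.6 FPKM at 24 h and 63.1 ± 6.35 FPKM at 0 h, and SLC2A1, a glucose carrier of many cell types, at 73.2 ± 5.60 FPKM at 24 h and 66.0 ± 5.55 FPKM at 0 h. On the counts their log2 fold changes were 0.13 ± 0.11 for ATP1B1 and -0.09 ± 0.11 for SLC2A1, neither of them called. The list was mixed. SLC2A2, SLC6A18, SLC13A1, SLC22A11, SLC22A12 and SLC47A2 had at most 1 read in any library. In contrast ABCB1, ABCC2, ABCC4, SLC22A5, SLC17A3, SLCO4C1, SLC6A13 and FXYD2 were among the 19 detected.

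**Figure D3:**
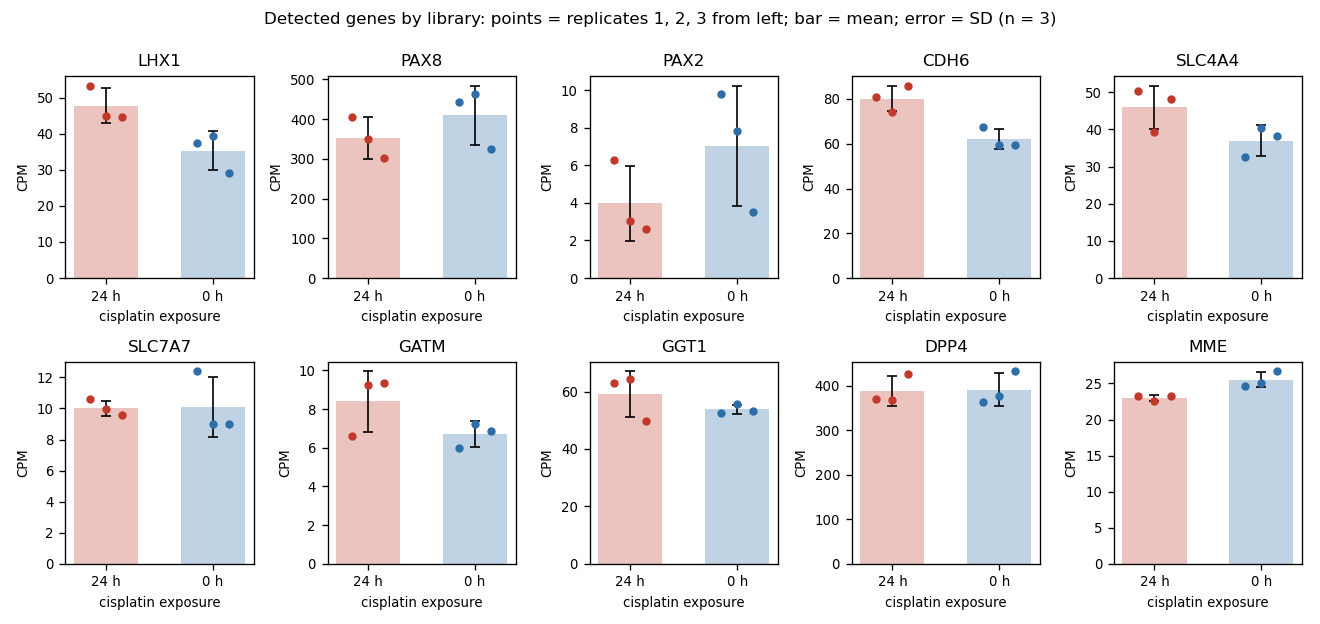
CPM of the 10 detected genes in each library, at 24 h (red) and 0 h (blue); points are replicates 1 to 3 from left to right, bars are means and error bars are SD (n = 3). LHX1 and CDH6 are higher in every 24 h library, MME is lower in every 24 h library, and the groups of the other 7 genes overlap.

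Of the 7 enzymes, the surface peptidases DPP4, MME and GGT1 and the creatine enzyme GATM were detected. DPP4, the dipeptidyl peptidase of the brush border that cleaves incretins, had 57.24, 63.18 and 75 FPKM in the 24 h libraries, against 51.22, 53.89 and 61.18 FPKM in the 0 h libraries. Its mean over all 6 libraries, 60.3 FPKM, was the highest of the 22 genes and above that of 96.9% of protein-coding genes. On the CPM scale the groups overlapped almost wholly, with 370, 369 and 427 at 24 h and 363, 377 and 433 at 0 h, and both libraries numbered 3 were the highest of their group. DPP4 had a log2 fold change of -0.01 ± 0.11 (95% interval -0.24 to 0.22, edgeR adjusted p = 0.976). DPP4 (ENSG00000197635.9) lies on the minus strand of chromosome 2 from 161992241 to 162074542.

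GGT1, gamma-glutamyltransferase, which splits glutathione at the brush border, had 382, 445 and 364 reads in the 24 h libraries, against 263, 284 and 302 reads in the 0 h libraries. The CPM values were 63.0, 64.4 and 49.9 at 24 h and 52.4, 55.7 and 53.3 at 0 h, so that 24 h replicate 3 was the lowest of all. The log2 fold change was 0.13 ± 0.12 (95% interval -0.12 to 0.39, edgeR adjusted p = 0.604). The value is uncertain, because in GENCODE 29 GGT1 overlaps the gene SNRPD3 on the same strand, which had 311% as many reads, and because GGT1 has near-identical copies, of which GGTLC1 and GGT3P held 6.18% and 5.49% as many reads. GGT1 (ENSG00000100031.18) lies on the plus strand of chromosome 22 from 24583750 to 24629005.

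MME, neprilysin, a peptidase of the brush border, had 141, 156 and 169 reads in the 24 h libraries, against 124, 128 and 151 reads in the 0 h libraries. In CPM these were 23.3, 22.6 and 23.2 at 24 h and 24.7, 25.1 and 26.7 at 0 h, and every 24 h library lay below every 0 h library. The distance was small, with means of 23.0 ± 0.372 CPM at 24 h and 25.5 ± 1.03 CPM at 0 h (SD, n = 3 each). The log2 fold change was -0.15 ± 0.13 (95% interval -0.42 to 0.12, edgeR adjusted p = 0.587), and with libraries scaled by the FPKM totals it was 0.089, which is -0.15 relative to the shift of all genes. MME (ENSG00000196549.10) lies on the plus strand of chromosome 3 from 155024124 to 155183729.

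GATM, the mitochondrial enzyme that makes the precursor of creatine, had 40, 64 and 68 reads in the 24 h libraries, against 30, 37 and 39 reads in the 0 h libraries. As CPM, the levels were 6.60, 9.26 and 9.33 at 24 h and 5.98, 7.25 and 6.89 at 0 h, and 24 h replicate 1 lay among the 0 h libraries. For GATM the log2 fold change was 0.33 ± 0.21 (95% interval -0.12 to 0.78, edgeR adjusted p = 0.448). GATM (ENSG00000171766.15) lies on the minus strand of chromosome 15 from 45361124 to 45402327. The other enzymes with a row were at the floor. ANPEP, aminopeptidase N, had 0, 0 and 0 reads at 24 h and 1, 0 and 0 at 0 h. FBP1, of gluconeogenesis, had 0, 0 and 1 reads at 24 h and 0, 2 and 0 at 0 h, and PCK1, the entry enzyme of that pathway, was not analysed here.

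Of 31 further enzymes of the proximal tubule, 24 had a row, 14 were detected and 15 were tested, and 1 rose and 0 fell by the edgeR test. Over all tested genes 0.866% were called higher and 2.08% lower. An unadjusted p under 0.05 was found for 5 of the 15 (4 higher and 1 lower), against 18.1% of all tested genes. The 1 gene called was CA2, the cytosolic carbonic anhydrase that feeds bicarbonate reclamation. CA2 had 361, 478 and 510 reads in the 24 h libraries, against 245, 235 and 241 reads in the 0 h libraries. Every 24 h library was above every 0 h library also in CPM, where 10.9% of all tested genes separate upward. The CPM means of CA2 were 66.2 ± 5.79 at 24 h and 45.8 ± 3.16 at 0 h (SD, n = 3 each), and the log2 ratio was 0.53 ± 0.11 (edgeR adjusted p = 0.0173). The call held in 16 of 20 alternatives and was lost without 0 h replicate 2 (adjusted p = 0.0999), without 24 h replicate 2 (0.122), without 24 h replicate 3 (0.0801) and in limma on unfiltered FPKM (0.0876). ASL, of the urea cycle (0.49 ± 0.14, adjusted p = 0.0633), and PCK2, the mitochondrial form of PCK1 (-0.48 ± 0.16, adjusted p = 0.120), did not pass. GLUD1, the mitochondrial glutamate dehydrogenase, was at 25.8 ± 2.28 FPKM at 24 h and 20.6 ± 1.97 FPKM at 0 h, with a log2 fold change on the counts of 0.08 ± 0.10.

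The fold changes of the 3 transcription factors ran from -0.84 to 0.44 with a median of -0.22, those of the 4 enzymes from -0.15 to 0.33 with a median of 0.06, and those of the 2 transporters from -0.01 to 0.31 with a median of 0.15. The median of all 10 was 0.06 (5 above and 5 below 0), against -0.002 for all tested genes, whose quartiles were -0.17 and 0.15. Among all tested genes LHX1 lay above 95.5% and PAX2 above 1.9%, so the factors held both ends of the range of the 10 genes. The difference between classes was not tested, since genes are not replicates. Scaling by the FPKM totals raised the median of the 10 to 0.30, with LHX1, CDH6 and SLC4A4 called higher where 17.4% of all genes were.

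**Figure D4:**
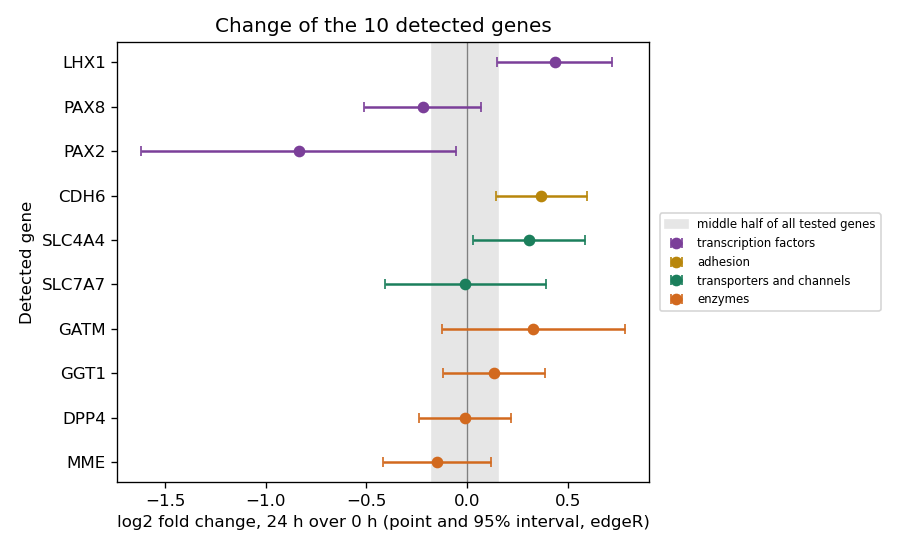
Log2 fold change of the 10 detected genes, 24 h over 0 h, as point and 95% interval of the edgeR model, coloured by role; the grey band runs from the lower to the upper quartile of all tested genes, -0.17 to 0.15. The intervals of LHX1, CDH6 and SLC4A4 lie above 0 and that of PAX2 below 0, before adjustment over 13389 genes.

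Transcription factors of the kidney lineage beyond the set were also present. Of 25 further transcription factors of the kidney lineage, 23 had a row and 15 were detected, and 0 of 17 tested rose or fell by the edgeR test, with 5 at an unadjusted p under 0.05, against 18.1% of all tested genes. SOX9, of tubule repair, was at -0.61 ± 0.17 (adjusted p = 0.0689) and PPARA, of fatty acid oxidation, at -0.48 ± 0.15 (adjusted p = 0.103). OSR1, of the intermediate mesoderm, was at 1.31 ± 0.38 (adjusted p = 0.0810) but did not meet the detection rule. It had 21, 25 and 21 reads in the 24 h libraries, against 3, 8 and 10 reads in the 0 h libraries. Its fold change thus rests on 0 h counts near the floor and is uncertain. SALL1, of the nephron progenitor, was at 11.3 ± 0.834 FPKM at 24 h and 8.74 ± 1.43 FPKM at 0 h, with a log2 fold change on the counts of 0.14 ± 0.13. Of 13 adhesion genes 8 were detected and 0 of 9 tested rose or fell, CTNNB1, beta-catenin, being nearest (0.24 ± 0.10, adjusted p = 0.224), and CLDN1, a tight-junction claudin, was the most abundant at 251 ± 21.5 FPKM at 24 h and 222 ± 18.1 FPKM at 0 h, with a log2 fold change on the counts of -0.06 ± 0.11. CDH16, the kidney-specific cadherin, was at -0.35 ± 0.19 (adjusted p = 0.360), TJP1, a tight-junction scaffold, at -0.17 ± 0.10 (adjusted p = 0.415), and CDH1, the epithelial cadherin, had at most 1 read in any library.

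Markers of other cells were scarce. Most of those listed for dedifferentiated or injured tubule were detected, and a few of them were very abundant. Of 18 markers of the loop of Henle, distal tubule and collecting duct, 11 had a row and 1 was detected, CLDN16 (-0.26 ± 0.11, adjusted p = 0.211). The summed FPKM of that list ran from 11.4 to 14.2 at 24 h and from 11.9 to 14.0 at 0 h. Of 15 markers of glomerular, endothelial, stromal and blood cells, 12 had a row, 3 were detected and 0 of 4 tested rose or fell, with a summed FPKM from 5.27 to 6.10 at 24 h and from 4.37 to 6.22 at 0 h. CDH5 and VWF, which define endothelium, had at most 1 read in any library. Of 12 genes of dedifferentiated and injured tubule, 10 were detected, PROM1 and VCAM1 were not, and 0 of 10 tested rose or fell. The summed FPKM of that list ran from 1640 to 2060 at 24 h and from 1400 to 1580 at 0 h. Most of it was SPP1, osteopontin, at 1140 ± 156 FPKM at 24 h and 902 ± 88.8 FPKM at 0 h. VIM, vimentin, came next at 350 ± 28.2 FPKM at 24 h and 284 ± 7.11 FPKM at 0 h. These FPKM carry the common shift of all genes. On the counts the log2 fold changes were 0.10 ± 0.12 for SPP1 and 0.06 ± 0.10 for VIM, neither of them called, and the median of the 10 was 0.053. CD24, a surface protein of injured tubule, was at 0.41 ± 0.13 (adjusted p = 0.0952) and LCN2, a secreted injury marker, at -0.33 ± 0.14 (adjusted p = 0.215). HAVCR1, the injury marker of the proximal tubule, was among the 10 tested and not called. It was at 72.3 ± 5.89 FPKM at 24 h and 59.6 ± 2.46 FPKM at 0 h, a pair that carries the same shift. By the same measure the 22 proximal tubule genes summed to 154 to 163 FPKM at 24 h and to 131 to 146 FPKM at 0 h, most of it DPP4 and PAX8, whose fold changes on the counts were -0.01 and -0.22.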

How the data were processed

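RNA-seq was made from rRNA-depleted total RNA of HK-2 cells, as directional paired-end libraries per the labels' protocols. The deposited read counts are whole numbers for 28565 genes, and the deposited FPKM values, scaled by the authors to gene length and a library total, are rounded and cover 28561. Per the submitters' processing notes, TopHat2, edgeR and GRCh38 were used. The sources used here do not give versions, the read counter, the annotation, strand use or the rule for multiply mapped reads.

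Each gene's counts in the 24 h group (n = 3) were set against those in the 0 h group (n = 3) with edgeR 4.0.16 in R 4.3.3, using its quasi-likelihood test after filterByExpr at default settings and TMM, without covariates, and Benjamini-Hochberg adjustment over all 13389 genes tested (called: adjusted p under 0.05). Alternatives used other scalings and filters, DESeq2 1.42.0, limma 3.58.1 on FPKM with a pseudocount of 1 or 0.1, the replicate number as a block, a length correction and left-out libraries. The edgeR, DESeq2, limma and length-corrected fits were tested on simulated counts with known changes. FPKM totals were recovered as count divided by FPKM in 3570 genes with more than 300 reads. Gene positions are those of GENCODE 29, matched by identifier without version. All members are accounted for. Of the lists of other genes, those called, the 3 with the smallest p and the most abundant 2 were to be named, and other genes named from them were chosen after their values were seen. Some of these genes and motifs are not reported here. The members, lists and tests were chosen with earlier results of these data known. Every row named a gene (0 left out). Reads carry no molecular identifiers, so limits for a count of 0 cover counting error only. The labels do not say whether replicates were separate cultures, and the design text speaks of 2 replicates, so p-values measure the spread between these libraries, which may be technical.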

Additional observations from a re-analysis of the deposited data

How the results depend on the processing

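The number of detected genes was 10 in every fit without 1 library and at a minimum of 5 reads, and 9, without PAX2, at 20 reads or 0.5 FPKM. The 0 calls among the 10 genes held with RLE, upper-quartile and total-count scaling, robust dispersion, a filter of 10 reads, DESeq2, limma on log2(FPKM + 1) without a filter, and without both libraries numbered 3. Calls of higher genes were 3 with FPKM totals, 2 with no filter, 2 with limma on log2(FPKM + 1) and 2 on log2(FPKM + 0.1), and 1 with the length correction. Without 1 library each, they ran from 0 to 1 higher and from 0 to 2 lower, all of them without 0 h replicate 3 (CDH6 higher, PAX8 and PAX2 lower), over all genes from 21 to 574 higher and from 92 to 923 lower, and for the median of the 10 from 0.05 to 0.14. That median was 0.30 with FPKM totals, 0.28 and 0.29 with limma at pseudocounts of 1 and 0.1, and 0.28 with limma at a pseudocount of 1 without a filter.

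Over all genes, 116 were called higher and 278 lower, against 2350 and 192 with FPKM totals, 345 and 395 with no filter, 685 and 82 with limma on log2(FPKM + 1), 625 and 74 on log2(FPKM + 0.1), 22 and 10 without a filter there, and 306 and 539 without both libraries numbered 3. Rises thus outnumbered falls under FPKM totals and limma, and falls outnumbered rises in the edgeR fits on TMM-scaled counts. With FPKM totals the median log2 fold change of all genes was 0.24. The cause of the difference between these fits was not tested.

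With the replicate block, 739 genes were called higher and 959 lower, and 2 of the 10 (LHX1 and CDH6) higher and 1 (PAX2) lower. Deviations of same-numbered libraries correlated at 0.241, -0.02 and 0.422 for numbers 1, 2 and 3. The 24 h replicates 1 and 3 thus correlated best with their own number, replicate 1 only just (0.226 with 0 h replicate 2). In contrast 24 h replicate 2 correlated best with 0 h replicate 1 (0.099). These values do not settle whether the number pairs the libraries. The main fit did not use it, and its 0 calls among the 10 genes depend on that choice.

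The sign turned in SLC7A7, DPP4, MME and PAX8, in MME and PAX8 under FPKM totals and limma on FPKM alone. Relative to the shift of all genes, FPKM totals left them at -0.01 (SLC7A7), -0.005 (DPP4), -0.15 (MME) and -0.23 (PAX8). SLC7A7 was at 0.23 with FPKM totals, 0.041 with no filter, 0.0088 by DESeq2, 0.16 and 0.23 by limma with pseudocounts of 1 and 0.1, 0.16 without a filter there, 0.0041 with the length correction and from -0.087 to 0.16 without 1 library. DPP4 was at 0.0010 with total counts, 0.23 with FPKM totals, 0.039 with no filter, 0.0086 by DESeq2, 0.22 and 0.23 by limma, 0.22 without a filter there, 0.0020 with the length correction and from -0.089 to 0.075 without 1 library. MME was at 0.089 with FPKM totals, 0.061 and 0.086 by limma, and 0.061 without a filter there. PAX8 was at 0.0093 with FPKM totals, 0.022 and 0.023 by limma, and 0.022 without a filter there. GATM, GGT1, LHX1, CDH6, SLC4A4 and PAX2 kept their sign in all 20 alternatives. Depth limits the 12 undetected genes, whose changes could not be measured.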
